A study of Brassica napus with 9 samples.

Results

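The genes described here are the copies of 2 malate enzymes that the study named in oilseed rape (*Brassica napus*): 6 copies of *MDH1*, a malate dehydrogenase, and 2 copies of *NADP-ME1*, an NADP-dependent malic enzyme. They were taken by gene identifier, 8 of the 104592 genes listed, and the study had listed them as changed by drought, and discussed them for fullerol, on these same libraries. Transcript levels were measured by RNA sequencing in leaf 3 of wild-type plants of cultivar Zhongshuang 11, sampled 25 days after sowing. The well-watered check (CK) was held at 80% of field capacity. The drought group (D) was brought down to 30% of field capacity. The third group (D + F) received the same drought with 100 mg/L fullerol, a polyhydroxylated fullerene, sprayed on the leaves from day 21. Per the methods, leaves of CK and D received distilled water without fullerol instead. Each group had 3 libraries from pot-grown seedlings, which the study calls biological replicates.

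Malate is an organic acid that leaves store in the vacuole and move between compartments as a carrier of carbon and reducing power. Malate dehydrogenase interconverts malate and oxaloacetate, a step that belongs to the citric acid cycle in mitochondria and to malate shuttles elsewhere in the cell. NADP-dependent malic enzyme splits malate into pyruvate and CO2 and yields NADPH, the reductant used in biosynthesis and in antioxidant reactions. The compartment of each copy, and the cofactor of each *MDH1* copy, were not looked up here, so the copies are named by identifier.

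Levels are given as FPKM, the fragments of a gene scaled to its length and to the fragments counted in the library, so that they may be set side by side between genes. The library totals solved from the files lay between 21939148 and 26042002 read pairs. All 8 copies passed the filter for testing, for which 3 or more of the 9 libraries had to exceed 1 FPKM. The *NADP-ME1* copy BnaC07g01180D passed only through the 3 D libraries, and BnaA07g00860D through those and 1 D + F library, so both had to differ between groups to be tested. How reads matching more than 1 copy were counted is not given in the sources used here, which leaves single-copy levels uncertain to that extent. In whole leaves, a change per cell cannot be told apart from a change in the make-up of the tissue.

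The 6 *MDH1* models were of unequal coding length, as solved from the FPKM digits. BnaA03g09800D and BnaA10g11990D had 1335 and 1329 bases, and BnaA08g01250D and BnaA09g16400D 1026 and 999 bases. BnaA06g08600D and BnaC07g14970D were the shortest, with 660 and 522 bases. The *NADP-ME1* copies had almost the same length, 1749 bases in BnaA07g00860D and 1752 in BnaC07g01180D. The study's pathway tables set both *NADP-ME1* copies against 1 *B. rapa* gene, and likewise *MDH1* BnaA06g08600D and BnaA09g16400D. *MDH1* BnaA03g09800D and BnaC07g14970D each had a different entry, and BnaA08g01250D and BnaA10g11990D had none. Whether the 6 *MDH1* models are copies of 1 gene was not tested, and sums over them follow the study's symbol.

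*MDH1* had the more abundant transcript in every library, and *NADP-ME1* the larger differences between groups. Summed over its copies, *MDH1* averaged 196.9 ± 13.6 FPKM over the CK libraries, 337.2 ± 19.4 under drought and 299.0 ± 13.3 under drought with fullerol (mean ± SD, n = 3). Its summed level was thus 1.71 times as high in D as in CK, and 1.52 times as high in D + F as in CK. *NADP-ME1* summed to 0.193 ± 0.135 FPKM in CK and 14.2 ± 5.74 in D, and to 1.11 ± 0.560 in D + F (mean ± SD, n = 3). The D libraries therefore held 73.3 times the summed *NADP-ME1* level of CK and 12.7 times that of D + F. Without CK 3, the highest of the check libraries, the first of these ratios was 117.5.

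Drought against the check was the first comparison (D vs. CK). All 8 copies were up-regulated in the limma fit, at a Benjamini-Hochberg adjusted p under 0.05. Of all 50626 genes tested, 32% were called in this comparison and 12.3% were called up. The D libraries lay above the CK libraries without overlap in all 8 copies, against 19.4% of the tested genes. The median log2 fold change of the 8 copies was 0.75, beside -0.10 for all genes tested. The study chose these genes on the same libraries, so neither count is independent evidence of the direction. Both *NADP-ME1* copies also passed the filter through their D libraries and no CK library, so their lack of overlap followed largely from the filter.

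*NADP-ME1* BnaA07g00860D had 0.0242, 0.0965 and 0.182 FPKM in CK 1 to 3, from 1, 4 and 7 reads as solved from the digits. In D it had 15.8, 7.10 and 11.7 FPKM, from 655, 286 and 479 reads. The lowest D library was thus far above the highest CK library. The log2 fold change of FPKM + 1 was 3.45 ± 0.27 (SE), with an adjusted p of 0.000323 by limma, and 224 of the tested genes had a higher one. Because a pseudocount of 1 shrinks a change from so low a level, the reads give a better view of its size. Scaled to library totals, the pooled reads were 117 times as high in D as in CK, with a 95% exact interval of 66.8 to 227 that covers counting error only, and 191.9 times as high without CK 3. By mean FPKM the gene lay above 0.575% of the tested genes in CK and above 71.0% of them in D.

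The other *NADP-ME1* copy, BnaC07g01180D, had 0.0483, 0.0722 and 0.156 FPKM in CK, from 2, 3 and 6 reads. In D it had 4.002, 1.24 and 2.62 FPKM, from 166, 50 and 107 reads. Again no library of one group reached the range of the other, which the filter had fixed for this copy. D 2 was the lowest D library in both copies. Its log2 fold change was 1.65 ± 0.29, with an adjusted p of 0.00616 by limma, and its pooled reads, scaled in the same way, were 29.0 times as high in D (16.01 to 58.8, 95% exact interval) and 43.6 times without CK 3. The copies were about equally low in CK, where BnaA07g00860D made up 33.4% to 57.2% of the summed level. In D it made up 79.8% to 85.1% of it, above every CK library.

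**Figure D1:**
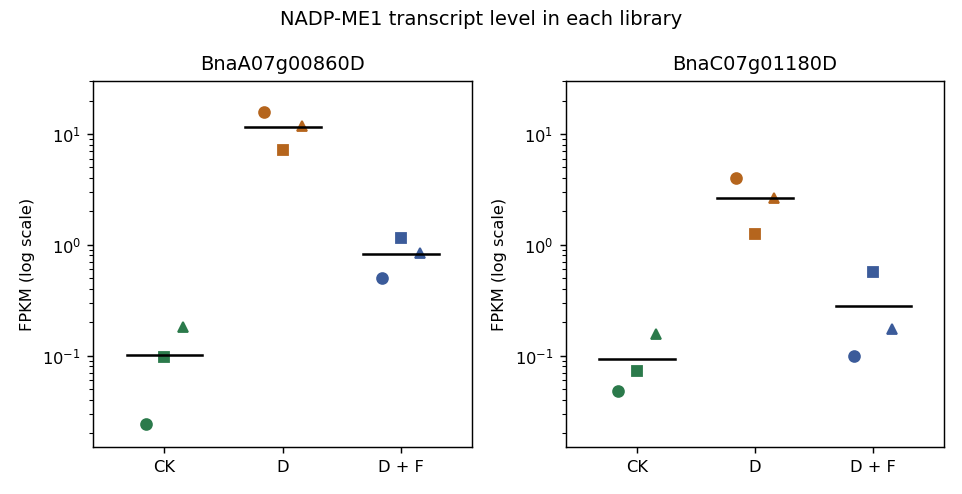
Transcript level in FPKM on a log axis for the 2 *NADP-ME1* copies in CK, D and D + F. Circles, squares and triangles are libraries 1, 2 and 3 and bars are group means. In BnaA07g00860D the D libraries lie between 7.10 and 15.8 FPKM, above every CK and D + F library, and in BnaC07g01180D between 1.24 and 4.002 FPKM.

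The *MDH1* copies rose less than 2-fold each, from a much higher level. BnaA03g09800D, the copy with the most transcript, had 71.7, 92.9 and 77.5 FPKM in CK and 162.0, 137.2 and 151.6 in D. Its mean was 1.86 times as high in D, the largest ratio among the 6 *MDH1* copies, with a log2 fold change of 0.89 ± 0.17 and an adjusted p of 0.00845 by limma. BnaA10g11990D, of nearly the same coding length, had 37.7, 50.3 and 39.9 FPKM in CK and 72.0, 56.3 and 71.4 in D. CK 2 was the highest check library and D 2 the lowest drought library in both of these copies. The log2 fold change of BnaA10g11990D was 0.63 ± 0.18, with an adjusted p of 0.0340 by limma.

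BnaA08g01250D had 28.1, 23.7 and 21.2 FPKM in CK and 33.9, 45.5 and 41.8 in D, with a log2 fold change of 0.71 ± 0.18 and an adjusted p of 0.0210 by limma. BnaA09g16400D had 28.2, 24.7 and 26.6 FPKM in CK and 40.8, 38.9 and 41.2 in D. Its rise of 0.59 ± 0.13 on the log2 scale was the smallest of the 8 (adjusted p = 0.0148, limma). The low CK and D libraries of one of these copies were not those of the other, D 1 being lowest in BnaA08g01250D and D 2 in BnaA09g16400D.

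The shortest models were also those with the least *MDH1* transcript. BnaA06g08600D had 11.7, 11.2 and 11.4 FPKM in CK and 19.4, 20.002 and 17.8 in D, a log2 fold change of 0.69 ± 0.13 (adjusted p = 0.00715, limma). BnaC07g14970D had 11.4, 9.78 and 12.7 FPKM in CK and 19.7, 16.8 and 25.3 in D, a log2 fold change of 0.80 ± 0.19 (adjusted p = 0.0166, limma). The check libraries of BnaA06g08600D had an SD of 0.279 FPKM, whereas the D libraries of BnaC07g14970D had one of 4.30 FPKM.

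Leaving out a single library ended some of these calls. The number of copies called in D vs. CK fell to between 5 and 7, with 5 remaining without CK 2 or without D 3. BnaA10g11990D was the least stable, which 2 of the 6 fits called, its adjusted p reaching 0.110. Both *NADP-ME1* copies, BnaA03g09800D and BnaA06g08600D were called in all 6.

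**Figure D2:**
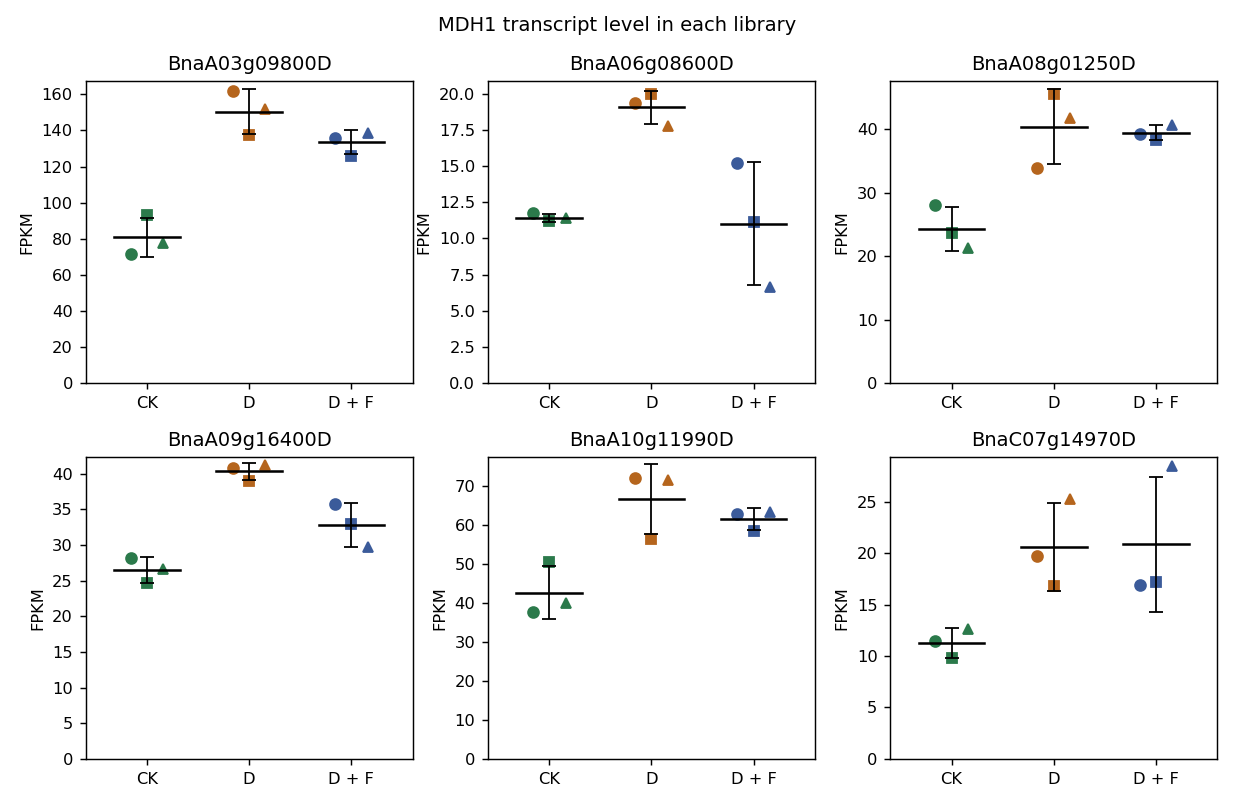
Transcript level in FPKM on a linear axis from 0 for the 6 *MDH1* copies in CK, D and D + F. Circles, squares and triangles are libraries 1, 2 and 3, bars are group means and whiskers 1 SD. Every D library lies above every CK library in each copy, while the D + F libraries of BnaA06g08600D run from 6.68 to 15.2 FPKM, below all 3 D libraries.

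The next comparison asked how the fullerol-sprayed plants under drought stood against the check (D + F vs. CK). It shares the CK libraries with D vs. CK, so both describe the same check. Of the 8 copies 2 were called, both up and both *MDH1*, while 17.1% of the tested genes were called and 8.9% called up. The libraries of D + F lay above those of CK without overlap in 6 copies, as in 20.1% of the tested genes, and overlapped with them in BnaA06g08600D and BnaC07g01180D. The median log2 fold change was 0.61 for the 8 copies and 0.04 for all genes tested.

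BnaA03g09800D had 135.9, 125.8 and 138.8 FPKM in D + F, above all CK libraries. Its log2 fold change against CK was 0.73 ± 0.18, with an adjusted p of 0.0336 by limma. BnaA08g01250D had 39.3, 38.3 and 40.7 FPKM, also above all CK libraries, and a log2 fold change of 0.68 ± 0.16 (adjusted p = 0.0287, limma). With a single library left out, BnaA03g09800D was called in 1 of 6 fits (without CK 3) and BnaA08g01250D in 2 of 6 (without CK 1 or CK 3), at adjusted p of up to 0.110 and 0.112. No copy was called without CK 2, D + F 2 or D + F 3. When D + F 1 was left out, *NADP-ME1* BnaA07g00860D alone was called, at an adjusted p of 0.0392 by limma. Quantile normalization ended both as well, at adjusted p of 0.0639 and 0.0590, and called BnaC07g14970D and BnaA07g00860D in their place.

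A further 3 copies missed the threshold narrowly, with libraries that did not overlap with CK. BnaC07g14970D had 16.9, 17.2 and 28.4 FPKM and a log2 fold change of 0.80 ± 0.23 (adjusted p = 0.0531, limma). BnaA10g11990D had 62.7, 58.3 and 63.4 FPKM and a log2 fold change of 0.53 ± 0.17 (adjusted p = 0.0765, limma). *NADP-ME1* BnaA07g00860D had 0.501, 1.14 and 0.849 FPKM, from 20, 52 and 34 reads, and a log2 fold change of 0.72 ± 0.21 (adjusted p = 0.0530, limma). In mean FPKM this copy was 8.22 times as high as in CK, or 13.8 times without CK 3, although its mean lay above that of only 3.21% of the tested genes.

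The last 3 copies lay closest to the check in log2(FPKM + 1). BnaA09g16400D had 35.7, 32.9 and 29.7 FPKM in D + F, a log2 fold change of 0.30 ± 0.15 (adjusted p = 0.219, limma). BnaA06g08600D had 15.2, 11.2 and 6.68 FPKM, so that D + F 1 lay above the check, D + F 2 just under its lowest library and D + F 3 well below it. Without D + F 3 the fitted value turned to 0.18. Its log2 fold change was -0.11 ± 0.27 with a 95% interval of -0.73 to 0.51 (adjusted p = 0.796, limma). *NADP-ME1* BnaC07g01180D had 0.1001, 0.570 and 0.174 FPKM, from 4, 26 and 7 reads, a log2 fold change of 0.21 ± 0.21 (adjusted p = 0.522, limma). The pseudocount shrinks this value too. Its mean FPKM was 3.05 times that of CK, or 1.49 times without D + F 2. Its scaled pooled reads were 3.25 times as high (1.62 to 7.06, 95% exact interval for counting error).

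Fullerol under drought was set against drought alone in the comparison of D + F vs. D. *NADP-ME1* BnaA07g00860D was the only one of the 8 copies called, and it was down-regulated. Of all genes tested 1.15% were called in this comparison and 0.338% were called down. All 8 fitted log2 fold changes were below 0, whereas the median of all genes tested was 0.14. Under median-of-ratios scaling the median of all genes fell to 0.01, and the 8 fitted values were again all below 0. The study reported *MDH1* and *NADP-ME1* as lowered by fullerol under drought, calling genes with DESeq on the same libraries. The direction of the 8 copies here is thus not independent evidence either. With a single library left out, BnaA08g01250D turned to 0.065 without D 2 and to 0.0046 without D 3, and BnaC07g14970D to 0.10 to 0.14 without D 3, D + F 1 or D + F 2. The D + F libraries lay below the D libraries without overlap in 4 copies, both of *NADP-ME1* with *MDH1* BnaA06g08600D and BnaA09g16400D, as did 4.99% of the tested genes. For BnaC07g01180D the filter had fixed this, since only its D libraries exceeded 1 FPKM. BnaA07g00860D also passed the filter mainly through its D libraries, so neither *NADP-ME1* copy adds evidence to this count.

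The D libraries of BnaA07g00860D, at 7.10 to 15.8 FPKM, were all above the D + F libraries, at 0.501 to 1.14 FPKM. The log2 fold change was -2.73 ± 0.28, with an adjusted p of 0.0187 by limma, and 60 of the tested genes had a lower one. Its mean FPKM was 13.9 times as high in D as in D + F, and its scaled pooled reads 13.7 times (11.3 to 16.9, 95% exact interval for counting error). The call was lost when library 1 or 3 of D or library 2 or 3 of D + F was left out, where the adjusted p was between 0.0540 and 0.0785 and the log2 fold change between -2.85 and -2.49. It was lost also without a filter on low values, at an adjusted p of 0.0799.

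BnaC07g01180D was 9.31 times as high in D as in D + F by mean FPKM, or 19.1 times without D + F 2, and its log2 fold change of -1.44 ± 0.31 did not pass (adjusted p = 0.0814, limma). The nearest libraries of this copy were D + F 2 with 0.570 FPKM and D 2 with 1.24. D + F 2 was the highest D + F library and D 2 the lowest D library in both *NADP-ME1* copies. The share of BnaA07g00860D in the summed *NADP-ME1* level was 83.4%, 66.7% and 83.0% in D + F 1 to 3, close to the 79.8% to 85.1% of D except in D + F 2.

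No *MDH1* copy was called by limma between D + F and D, where the study, using DESeq, reported *MDH1* as lowered. BnaA06g08600D had the largest difference of the 6, with a log2 fold change of -0.80 ± 0.26 and a 95% interval of -1.42 to -0.18 (adjusted p = 0.191, limma). In BnaA09g16400D it was -0.29 ± 0.13, with an interval of -0.59 to 0.01 (adjusted p = 0.291, limma). Both copies, set against 1 *B. rapa* gene in the pathway tables, had their lowest level of the D + F libraries in D + F 3. They did not keep 1 ratio there: BnaA09g16400D was 1.95 to 2.40 times as high as BnaA06g08600D over the CK and D libraries, but 2.35, 2.95 and 4.44 times as high in D + F 1 to 3.

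The other 4 *MDH1* copies overlapped between D + F and D. The fitted value of BnaA03g09800D was -0.17 with a 95% interval of -0.49 to 0.16, and that of BnaA10g11990D was -0.11 with an interval of -0.45 to 0.24. BnaA08g01250D had -0.02 (-0.37 to 0.32) and BnaC07g14970D -0.01 (-0.58 to 0.56). None of these intervals reaches a 2-fold change. In BnaC07g14970D the wide interval came with a high library in each group, D + F 3 at 28.4 FPKM and D 3 at 25.3. D + F 3 was also the library in which BnaA06g08600D was lowest.

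**Figure D3:**
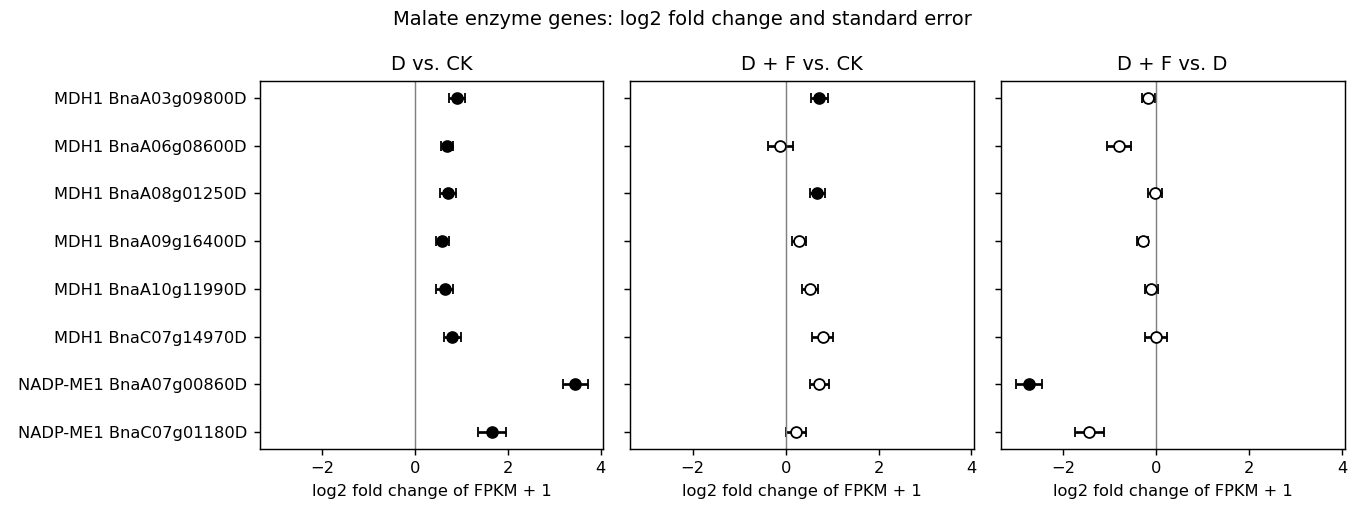
Log2 fold change of FPKM + 1 (points) and its standard error (whiskers) for the 8 copies in the 3 comparisons, on 1 shared axis. Filled points passed an adjusted p of 0.05 by limma, and open points did not. All 8 are filled for D vs. CK, but 2 *MDH1* copies alone for D + F vs. CK, and only *NADP-ME1* BnaA07g00860D, at -2.73, for D + F vs. D.

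Where the D + F libraries stood between D and CK was expressed for each copy as a share of the D-to-CK difference in mean log2(FPKM + 1), 0 being the level of D and 1 that of CK. It is a description, since the D and CK means enter it for every copy. On this scale the *NADP-ME1* copies stood nearest to CK among those with a narrow spread. BnaA07g00860D was at 0.79 ± 0.07 and BnaC07g01180D at 0.87 ± 0.17 (mean ± SD, n = 3). The pseudocount of 1 draws low levels together, and in mean FPKM these copies were 8.22 and 3.05 times as high in D + F as in CK. With a pseudocount of 0.1, which gives more weight to low levels, BnaA07g00860D stood at 0.62. *MDH1* BnaA09g16400D stood midway at 0.50 ± 0.22.

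The remaining *MDH1* copies stood near D or could not be placed. BnaA03g09800D was at 0.19 ± 0.08, BnaA10g11990D at 0.17 ± 0.10 and BnaA08g01250D at 0.03 ± 0.06. BnaC07g14970D averaged 0.01 with an SD of 0.51, and BnaA06g08600D 1.17 with an SD of 0.79, so their D + F libraries spanned a large part of the distance or more. Under median-of-ratios scaling BnaA03g09800D moved to 0.32, BnaA10g11990D to 0.34 and BnaA08g01250D to 0.21, all still nearer to D.

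**Figure D4:**
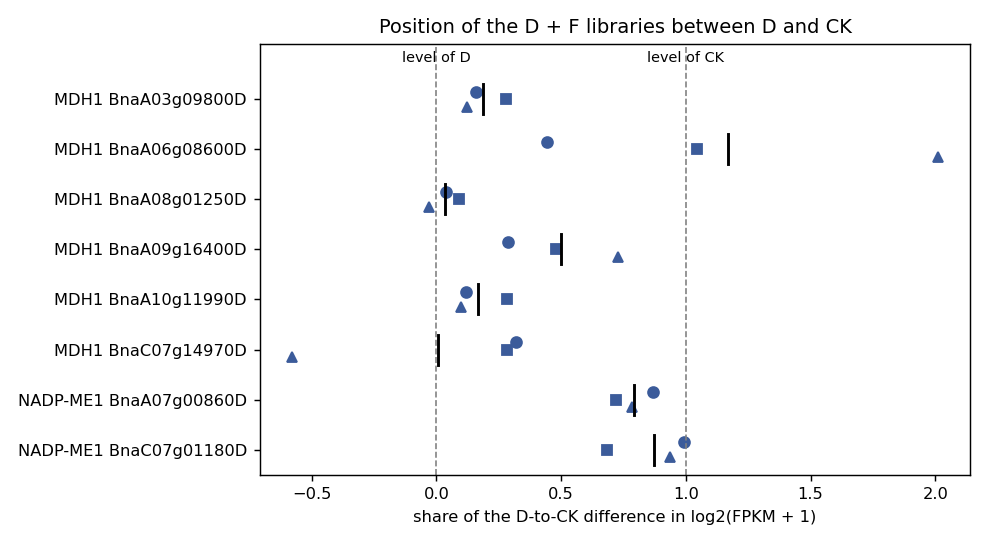
Position of each D + F library between the mean of D (0) and the mean of CK (1) in log2(FPKM + 1), for the 8 copies. Circles, squares and triangles are libraries 1, 2 and 3 and bars are their means. The *NADP-ME1* copies average 0.79 and 0.87, and BnaA06g08600D spreads from 0.44 to 2.01.

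The order of the *MDH1* copies was led by the same copies in all 3 groups. BnaA03g09800D supplied 40.9% ± 2.86 of the summed *MDH1* level in CK, 44.5% ± 1.77 under drought and 44.6% ± 0.426 with fullerol (mean ± SD, n = 3). BnaA10g11990D came next with 21.6%, 19.7% and 20.5%. The ratio of BnaA03g09800D to BnaA10g11990D was 1.84 to 1.94 over the CK libraries, 2.12 to 2.44 over those of D and 2.16 to 2.19 over those of D + F, so that the check did not overlap with either drought group. This ratio was looked at after the values were seen and was given no test.

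Neighbours lower in the order were harder to separate. BnaA08g01250D and BnaA09g16400D overlapped in CK and in D, but in D + F the former, at 38.3 to 40.7 FPKM, lay above the latter, at 29.7 to 35.7. BnaA06g08600D and BnaC07g14970D likewise overlapped in CK and in D, and in D + F every library of BnaC07g14970D, from 16.9 FPKM, was above every one of BnaA06g08600D, up to 15.2. The share of BnaA06g08600D in the *MDH1* sum was 5.10% to 6.35% over the CK and D libraries and 4.98%, 3.94% and 2.17% in D + F 1 to 3.

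Likeness of pattern was measured by Pearson's r of log2(FPKM + 1) over the 9 libraries, which is a description, because the 3 groups themselves set most of the spread. *MDH1* BnaA03g09800D and BnaA10g11990D were the most alike of the *MDH1* copies, with r = 0.975. Only 2 of the 50625 other tested genes were more like BnaA10g11990D than BnaA03g09800D was. In the other direction BnaA10g11990D had rank 13. The *NADP-ME1* copies had r = 0.974, while *MDH1* BnaA06g08600D and BnaC07g14970D had r = 0.00489. Among the 111 genes of the study's named list, those most like the *NADP-ME1* copies were both *P5CS2*, which encodes a synthase of proline formation. They were BnaA09g35230D for BnaA07g00860D (r = 0.978) and BnaC08g26550D for BnaC07g01180D (r = 0.960). Each had rank 12 among the 50625 other tested genes.

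The same list gave *P5CS1* BnaC04g05620D, another gene of proline formation, as most like *MDH1* BnaA03g09800D (r = 0.952). *RFS2* BnaC08g28500D, a raffinose synthase gene, was most like BnaA10g11990D (r = 0.895). Arogenate dehydratase genes, which serve phenylalanine formation, were most like BnaA08g01250D (*ADT1* BnaA06g07360D, r = 0.952) and BnaC07g14970D (*ADT2* BnaA05g29990D, r = 0.920). *Acy1b* copies came first for BnaA06g08600D (BnaA06g40880D, r = 0.926) and BnaA09g16400D (BnaCnng71090D, r = 0.987). Among all other tested genes these *Acy1b* copies had ranks 12 and 3. The other listed genes ranked far lower, at 179 for BnaA03g09800D, 513 for BnaA10g11990D, 188 for BnaA08g01250D and 762 for BnaC07g14970D. Many unlisted genes were thus more like those 4 copies.

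Next to malate in the citric acid cycle, 6 genes of citrate and isocitrate from the study's list were compared, and 4 of them fell under drought. The study chose them on these libraries too, so their direction is not independent evidence. In D vs. CK 4 of the 6 were called down, as were 19.7% of the tested genes, and none up, and the median log2 fold change of the 6 was -0.88. The 4 were *ACO1* and both *ACO3* copies, which encode aconitases that turn citrate into isocitrate, and *CICDH*, an NADP-dependent isocitrate dehydrogenase that, like malic enzyme, yields NADPH. *CICDH* BnaC06g27300D fell by 0.94 on the log2 scale (adjusted p = 0.00760, limma) while *NADP-ME1* BnaA07g00860D rose by 3.45. *CSY3* BnaA05g03050D, a citrate synthase gene, had 0.79 (adjusted p = 0.0725), and *ACLB-2* BnaC07g27210D, a subunit gene of ATP-citrate lyase, 0.39 (adjusted p = 0.339).

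In D + F vs. CK 3 of these genes were called down, as were 8.16% of the tested genes, and *ACLB-2* up, by 1.71 ± 0.31 (adjusted p = 0.0112, limma). In D + F vs. D none of the 6 was called, and 3 had an unadjusted p under 0.05. So did 3 of the 8 malate enzyme copies and 17.6% of the tested genes. *CICDH* had -0.42 (adjusted p = 0.201) where *NADP-ME1* BnaA07g00860D had -2.73. The 6 unnamed genes that the study listed with malate enzymes under pyruvate metabolism for that comparison were called 3 up and 3 down in D vs. CK, where 12.3% and 19.7% of the tested genes were. For D + F vs. D 1 of these 6 was called, up, as were 0.808% of the tested genes, and none down. All 6 had an unadjusted p under 0.05 by limma. The study chose them on these libraries for this comparison, so that count is not independent evidence.

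**Figure D5:**
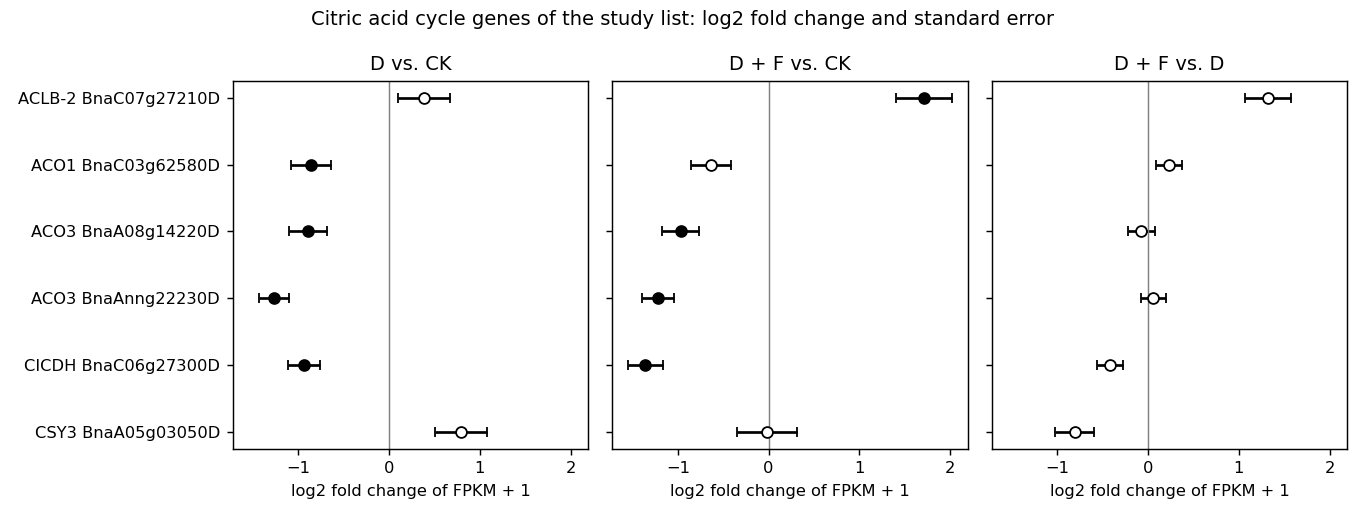
Log2 fold change of FPKM + 1 (points) and its standard error (whiskers) for 6 citrate and isocitrate genes of the study's list in the 3 comparisons. Filled points passed an adjusted p of 0.05 by limma, and open points did not. In D vs. CK 4 points are filled and below 0, and in D + F vs. D none is filled.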

How the data were processed

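Leaf RNA of 9 libraries, 3 each of CK, D and D + F by the labels, was deposited as FPKM per gene, 1 file a library. Per the methods, the authors used TopHat (2.0.12) and Bowtie (2.2.3) to align the reads to a *B. napus* genome and HTSeq (0.6.1) to count them. The submitters' processing notes name Bowtie 0.12.2 and the mouse build mm8 instead, and the files list *B. napus* genes. Reads, coding lengths and totals were solved from the FPKM digits. Of 589231 values above 0, 99.97% were whole within 0.01 reads, and 96.8% of lengths were multiples of 3.

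The 6 libraries of each comparison were fitted alone with limma 3.58.1 (R 4.3.3) on log2(FPKM + 1), with a trend and Benjamini-Hochberg adjustment over the 50626 genes above 1 FPKM in at least 3 libraries. The threshold was 0.05, with no minimum change. P-values weigh the difference between group means against the spread between these libraries, which limma moderates over all tested genes. Exact binomial intervals (95%) of pooled reads cover counting error only. The solving of reads and the limma fit were each tried on simulated data. The limma trial changed only genes above a minimum read level, and only for D vs. CK. Counts as low as those of *NADP-ME1* in CK were thus not covered. Tables and figures used matplotlib 3.10.9, scipy 1.17.1, pandas 2.3.3 and numpy 2.4.6 under Python 3.11.15.

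The text names all 8 copies, 6 citric acid cycle genes and, for each copy, the most alike named gene. Members and lists were chosen with earlier results of these data known. Alternatives tried were no filter, a pseudocount of 0.1, a mean FPKM of at least 5, median-of-ratios scaling (39770 genes), quantile normalization, 1 fit on all 9 libraries, a replicate block, no trend, a 2-fold minimum, voom on solved reads, and leaving out each library. Other genes of the citric acid cycle list are not reported here, so its counts cover those 6 alone. No sequence was used here.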

Additional observations from a re-analysis of the deposited data

How the results depend on the processing

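The number of copies called in D vs. CK, 8, was 2 with a minimum change of 2-fold and 5 to 7 with a library left out. In D + F vs. CK, 2 copies called became 4 with median-of-ratios scaling or with 1 fit on all 9 libraries, 0 with a 2-fold minimum, and 0 to 2 with a library left out. In D + F vs. D, 1 copy called became 0 without a filter, 0 at a mean FPKM of at least 5, where both *NADP-ME1* copies drop out of the test, 2 with 1 fit on all 9 libraries, and 0 to 1 with a library left out. The causes of the other changes were not tested. Quantile normalization exchanged both calls in D + F vs. CK for 2 others and ended no call in the other comparisons.

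Replicate numbers were not taken to pair the libraries, since not every same-numbered pair correlated above 0.1 in its deviations. The correlations were -0.29, 0.06 and -0.02 for D with CK, 0.31, 0.05 and 0.27 for D + F with CK, and -0.19, -0.10 and 0.22 for D + F with D. Differently numbered pairs reached at most 0.26, 0.04 and 0.32 in these comparisons. For D + F with CK, where every same-numbered pair was positive, pairing was thus not settled. With a replicate block the copies called were 6 for D and 3 for D + F against CK and 0 for D + F against D, with 11986, 11060 and 1 of all tested genes.

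All genes called numbered 16209, 8641 and 580 in the 3 comparisons. The last became 22 without a filter, 322 at a mean FPKM of at least 5 and 0 to 576 with a library left out. With a 2-fold minimum the first 2 became 8151 and 5048, and with a library left out they ranged from 10006 to 17377 and from 3125 to 9591. Calls in D vs. CK were 6248 up and 9961 down, but 8259 and 8675 under median-of-ratios scaling and 8468 and 8276 under quantile normalization. In D + F vs. D they were 409 up and 171 down, against 282 and 222 or 267 and 223. Only leaving out a library turned a direction, within -0.36 to 0.18 for BnaA06g08600D in D + F vs. CK. Between D + F and D it did so within -0.14 to 0.065 for BnaA08g01250D and -0.24 to 0.14 for BnaC07g14970D. The low reads of *NADP-ME1* in CK limit the precision of its fold changes.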
